A study of Mus musculus with 16 samples.

Results

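The 40 mitosis and centromere genes described here were taken by name, as genes of G2 and M phase, of the spindle and of the centromere, and not by any measured value. All 40 stood among the 24946 gene rows of both tables and all 40 passed the filter on low values, which asked for a mean of at least 10 normalized reads. They fall into 7 role groups. The cyclin-CDK1 engine that starts mitosis was represented by Cdk1, Ccna2, Ccnb1, Ccnb2, Cks1b, Cks2, Cdc25b and Cdc25c. The spindle checkpoint and the anaphase-promoting complex (APC/C) were represented by Bub1, Bub1b, Mad2l1, Ttk, Cdc20 and Ube2c, and the centromere and outer kinetochore by Cenpa, Cenpe, Cenpf, Nuf2 and Ndc80. Aurora and Polo kinases with a passenger protein were Aurka, Aurkb, Plk1 and Birc5. Spindle motors and microtubule proteins were Kif11, Kif2c, Tpx2, Hmmr, Nusap1, Tacc3, Gtse1 and Dlgap5. Kif20a, Kif20b, Kif23, Prc1, Ect2 and Anln act at the spindle midzone and in cytokinesis, and Top2a, Mki67 and Hmgb2 are proteins of the chromosomes.

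The genes were measured in cultured neural stem cells (NSCs) of the V-SVZ (ventricular-subventricular zone), a germinal niche along the lateral ventricle of the mouse brain. Cultures with intact Tsc2 (Tsc2 wild type/wild type) and with both copies mutated (Tsc2 mutant/mutant) numbered 4 each, and total and polyribosomal RNA were both sequenced from every culture, giving 16 libraries. The study's methods used neonatal pups that carried a conditional Tsc2 allele, a red fluorescent reporter switched on by Cre, and a Cre made active by tamoxifen under the Nestin promoter, so deletion depended on cells in which Nestin drives Cre. The sources do not settle if the wild-type animals had the Cre transgene. The pups also received EdU with the tamoxifen. Pups were killed a week after tamoxifen, and the cells were grown with EGF and FGF and passaged before lysis. By the methods, cycloheximide, a translation inhibitor, was added to every dish shortly before lysis, and total RNA was taken from the same lysates. Polyribosomal RNA is the mRNA in the heaviest part of a sucrose gradient, where a transcript carries several ribosomes. The labels do not give the sex of a culture or the animal it came from, so the p-values measure the spread between cultures.

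Mitosis is set in motion by Cdk1 bound to cyclin A or cyclin B. The sister chromatids attach to the spindle through kinetochores built on CENP-A chromatin, and the checkpoint holds back APC/C until every kinetochore is attached. APC/C with Cdc20 then marks cyclin B and securin for destruction, and the cell divides at the midzone. Transcripts of these genes build up in G2 and M phase, largely through promoters that carry a cell cycle genes homology region (CHR), bound by the MuvB complex, and CCAAT boxes, bound by NF-Y. In the V-SVZ they mark cycling progenitors, and their level in bulk RNA depends on the share of cells in those phases. Tsc2 encodes tuberin, a brake on the kinase complex mTORC1, which controls cell growth and the translation of many mRNAs.

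Sums of normalized reads ranged from 65.6 to 73.7 M (mega-reads) for total RNA and from 87.4 to 101 M for polyribosomal RNA, and the smallest values put the depth at about 24.7 to 138 M and 50.5 to 271 M reads. Across genes, which are not independent replicates, libraries of a group correlated at a Spearman coefficient of at least 0.968. The NSC marker list (10 genes, among them Nes, Vim, Sox2 and Fabp7) summed to between 745386 and 884383 normalized reads in wild-type and between 768213 and 853847 in mutant total RNA, with no marker at 0. Tsc2 RNA gave no check of the labels, since its change did not pass (log2 change -0.10 in total RNA, limma adjusted p = 0.422). Its reads are summed over the whole gene, and the deleted part was not measured apart. Why the genotypes were alike in Tsc2 RNA was not tested. Of 8 oligodendrocyte markers 8 rose in mutant total RNA (summed range 9132 to 10861 in wild-type and 18813 to 25680 in mutant cultures), and of 13 microglia and macrophage markers 4 rose (3117 to 5119 against 3974 to 23631, highest in mutant cultures 2 and 4). Of the neuron, endothelial, fibroblast and pericyte, and choroid plexus lists 1 of 6, 2 of 5, 2 of 6 and 2 of 5 tested markers rose and 0 fell. Over all tested genes 19.7% rose and 20.7% fell in total RNA. The neuron share of 16.7% was under that for a rise, and the microglia and macrophage share was 30.8%. The Y-linked transcripts summed to between 4203 and 5802 in wild-type cultures 1, 2 and 3 and to 4775 in mutant culture 1, against 258 in wild-type culture 4 and between 6.57 and 48.6 in mutant cultures 2, 3 and 4.

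The promoters of these genes were examined for the sequences that their shared regulators read. RefSeq promoter windows of GRCm38.p6, from 250 bases before to 50 after each start, were at hand for 34 of the 40 genes. A CHR, searched on both strands as TTTGAA or TTCGAA, was found for 25 of 34 (73.5%, 95% Wilson interval 56.9% to 85.4%) against 21.7% of all 27025 genes in the table and 16.1% of the 11654 that were also tested in total RNA. CCAAT, on both strands, was also found for 25 of 34 (73.5%) against 41.1% of all and 42.7% of tested genes, and 21 genes held both. E2F letters, which on both strands were TTGGCGC or the variant TTCCCGC, and further the variants TTCGCGC as well as TTGCCGC, were found for 6 of 34 (17.6%), against 10.9% of all and 18.9% of tested genes. The CHR lay close to the start: with only the 250 bases before it, 13 of 34 genes (38.2%) held a CHR, against 19.6% of all genes, while the share with CCAAT stayed at 73.5%.

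**Figure D1:**
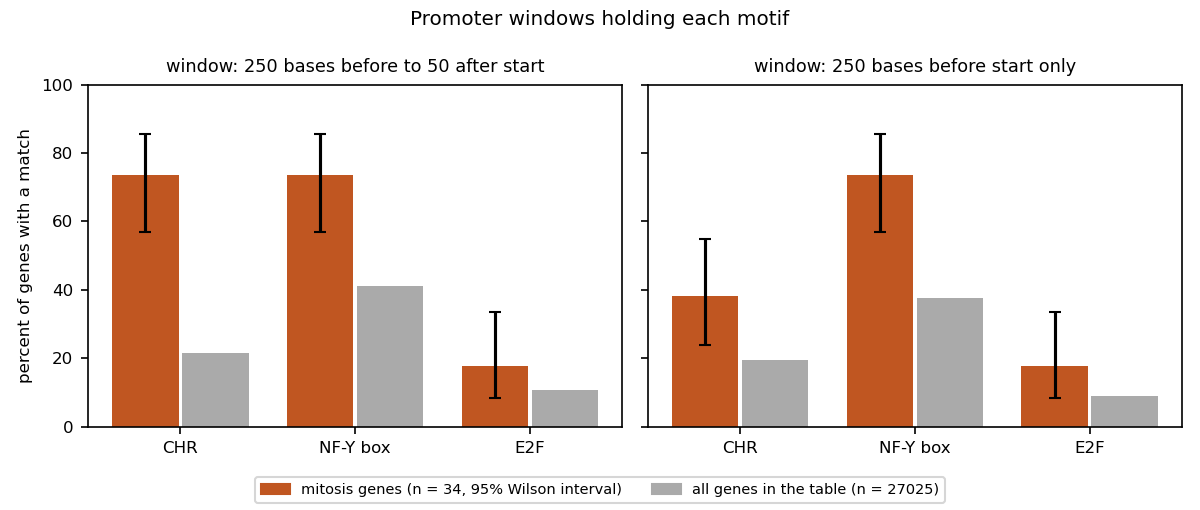
Percent of genes whose promoter window holds a CHR, an NF-Y box (CCAAT) or E2F letters, for 34 mitosis and centromere genes (orange, with 95% Wilson intervals) and for all 27025 genes of the reference table (grey), in the window with the 50 bases after the start (left) and without them (right). The CHR share was 73.5% of the mitosis genes in the wider window and 38.2% in the narrower, against 21.7% and 19.6% of all genes.

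Stretches of 100 bases that end at the base before the start are given for genes that stand for the response types below. Capitals mark CHR and CCAAT letters on either strand, so that TTCAAA is a CHR read from the opposite strand, as is ATTGG for the other box. By the adjusted threshold, Cdk1 and Cks1b passed as lower in mutant total RNA only, Cdc20 and Ube2c in both fractions, and Kif11 and Top2a in neither. These types go by the threshold alone. On polyribosomes, Cdk1 and Cks1b were unlike in size, with log2 changes of -0.26 and -0.03.
Cdk1, chr10:69352913-69353012, minus strand, GRCm38.p6: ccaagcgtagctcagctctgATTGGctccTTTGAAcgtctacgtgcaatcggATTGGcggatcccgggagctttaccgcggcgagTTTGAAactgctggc
Cks1b, chr3:89418292-89418391, minus strand, GRCm38.p6: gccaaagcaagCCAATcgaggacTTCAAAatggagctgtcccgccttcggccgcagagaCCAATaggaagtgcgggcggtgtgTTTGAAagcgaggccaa
Cdc20, chr4:118437344-118437443, minus strand, GRCm38.p6: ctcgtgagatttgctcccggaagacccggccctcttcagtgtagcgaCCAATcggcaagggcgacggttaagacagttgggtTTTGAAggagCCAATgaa
Ube2c, chr2:164769829-164769928, plus strand, GRCm38.p6: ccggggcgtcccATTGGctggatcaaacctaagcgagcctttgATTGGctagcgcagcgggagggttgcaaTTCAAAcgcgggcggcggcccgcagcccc
Kif11, chr19:37376282-37376381, plus strand, GRCm38.p6: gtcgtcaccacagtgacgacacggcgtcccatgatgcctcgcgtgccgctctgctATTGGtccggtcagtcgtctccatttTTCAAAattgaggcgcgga
Top2a, chr11:99024190-99024289, minus strand, GRCm38.p6: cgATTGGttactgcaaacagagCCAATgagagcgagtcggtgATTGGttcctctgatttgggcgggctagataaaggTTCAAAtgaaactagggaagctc
The CHR letters began 15 bases before the start in Cdk1 and 17 in Cks1b, and Cdk1 and Cks1b each held another CHR further out. In Cdc20 a CHR began 18 bases before the start, in Kif11 19, in Top2a 23 and in Ube2c 29. Falls in mutant total RNA occurred with and without the letters: 11 of 25 genes with a CHR and 6 of 9 without it fell there, as did 13 of 25 with and 4 of 9 without CCAAT. Over all tested genes 20.7% fell in total RNA, and that share was not split by motif. These are matches of letters and not measured binding.

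Mutant total RNA held less of these transcripts. Of 40 genes 19 fell and 0 rose (47.5% lower, limma adjusted p under 0.05), where 20.7% of all 14967 tested genes fell and 19.7% rose; at an unadjusted p under 0.05, 29 were lower and 0 higher. All 40 log2 changes were below 0, with a median of -0.50 and a range from -0.84 (Cenpa) to -0.12 (Cdc25b), beside a median of 0.01 over all tested genes. The cyclin-CDK1 engine held the most falls, 7 of 8, followed by the checkpoint and APC/C genes with 4 of 6. The centromere genes had 2 of 5, the Aurora, Polo and passenger genes 2 of 4, midzone and cytokinesis 2 of 6, the chromosome proteins 1 of 3 and the spindle motors and microtubule proteins 1 of 8. The genotypes did not overlap for 13 genes, whose highest mutant value was under the lowest wild-type value (32.5%, against 20.3% of all tested genes). In bulk RNA, fewer cells in G2 and M phase and less of these transcripts per cell cannot be told apart. The count moved between 10 and 34 when a culture was left out, being 10 without mutant culture 1, 11 without wild-type culture 3 and 34 without mutant culture 2, and it was 35 without mutant cultures 2 and 4, which held the most microglial RNA and were also the highest mutant cultures for these genes, so that leaving them out enlarges the difference by construction. The share of all tested genes that were lower was 14.1% without mutant culture 1 and 14.9% without wild-type culture 3. It was 22.8% without mutant culture 2 and 23.8% without mutant cultures 2 and 4. When the Y-linked level entered the fit, 0 genes passed (15 at an unadjusted p under 0.05) and the median change was -0.49, while 3.57% of all genes remained called as lower.

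Fewer of these genes differed in polyribosomal RNA. There 9 of 40 fell and 0 rose (22.5% lower, against 11.9% of all 14412 tested genes lower and 11.7% higher), with 30 changes below 0 and a median of -0.22 in a range from -0.63 (Mad2l1) to 0.35 (Cenpe). Of the 9, 8 had also fallen in total RNA, namely Ccnb1, Ccnb2, Mad2l1, Cdc20, Ube2c, Aurka, Tacc3 and Hmgb2, and Plk1 passed in polyribosomal RNA alone. For 36 genes the change was more negative in total than in polyribosomal RNA. Neither this count nor that of changes below 0 was made over all tested genes. Their median change on polyribosomes was 0.008. The median difference between the changes, polyribosomal minus total, was 0.01 over all tested genes and 0.29 over the 40. The polyribosomal calls were close to the threshold, with 0 lower genes when values were scaled by library size alone (8 at an unadjusted p under 0.05) or by quantiles (6), or without wild-type culture 3 (12). There were 1 without wild-type culture 1, 2 without wild-type culture 2, 3 without mutant culture 1, 1 without mutant culture 3, 22 without mutant cultures 2 and 4, and 0 (7) with the Y-linked covariate. The share of all tested genes moved too, to 6.45% lower by library size alone, 10.1% by quantiles and 6.18% without wild-type culture 3. It was 7.26% and 6.27% without wild-type cultures 1 and 2, and 7.53% and 7.81% without mutant cultures 1 and 3, each left out singly. Without mutant cultures 2 and 4 it was 19.5%, and with the Y-linked covariate 0.0902%.

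**Figure D2:**
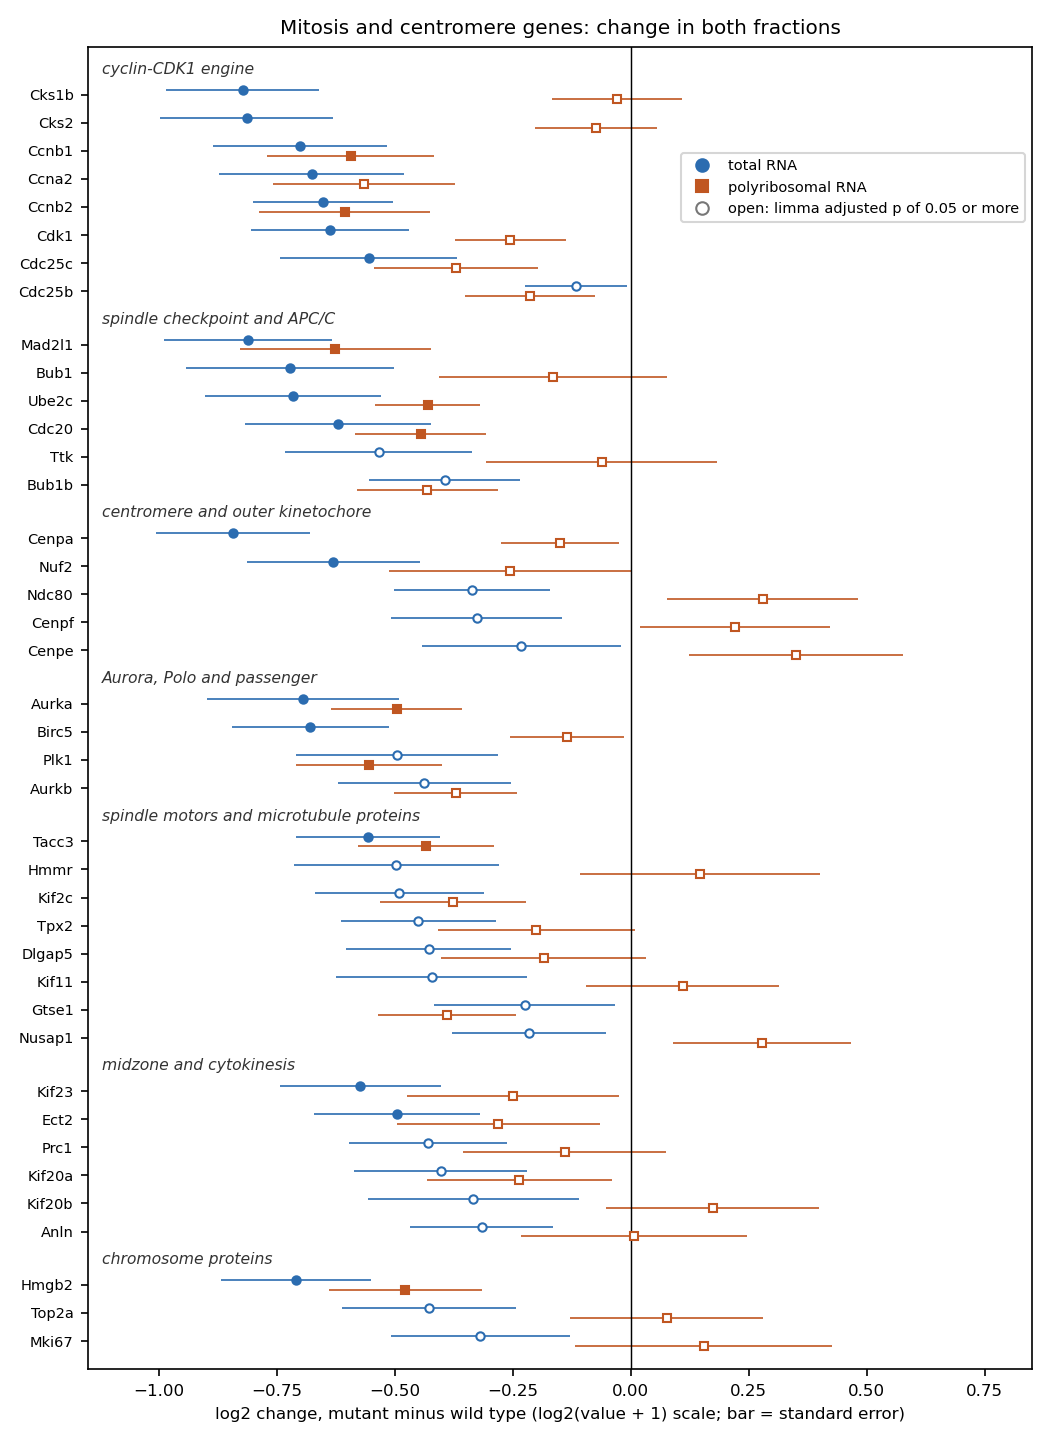
Log2 change (mutant minus wild type, with its standard error) of each of the 40 genes in total RNA (blue circles) and polyribosomal RNA (orange squares), by role group, with filled symbols for a limma adjusted p under 0.05. All 40 blue points lie below 0, and 36 of 40 lie to the left of their orange partner, furthest apart for Cks1b, Cks2 and Cenpa.

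The cyclin-CDK1 engine had the largest share of falls in total RNA. Cks1b (chromosome 3, 89415472 to 89418383, minus strand, GRCm38) encodes a small protein that docks Cdk complexes on their substrates. In wild-type total RNA its cultures 1 to 4 held 8043, 8529.9, 9231 and 7719 normalized reads and the mutant cultures 4332, 6118, 3425 and 5498, so every mutant culture was below every wild-type culture. Cks1b fell by 0.82 ± 0.16 (SE) on the log2 scale (limma adjusted p = 0.00512). In polyribosomal RNA it stood at 4460.0, 5983, 6089.5 and 5733 in wild-type and 6058, 5747, 4727 and 5211 in mutant cultures, which overlapped (log2 change -0.03 ± 0.14, adjusted p = 0.892). Its relative Cks2 was at 5255, 5892, 6401 and 4718 in wild-type and 2860.0, 4183, 2220.2 and 3687 in mutant total RNA, again without overlap (-0.81 ± 0.18, adjusted p = 0.00813). In polyribosomal RNA Cks2 stood at 3812 ± 459 and 3614 ± 326 (mean ± SD, n = 4 each, adjusted p = 0.709). Of the 75-base words of Cks2, 26.9% also occur in pseudogenes, so its reads are less certain.

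The B cyclins fell in both fractions. Ccnb1 (chromosome 13, 100778650 to 100786570, minus strand, GRCm38), the cyclin that activates Cdk1 at mitotic entry, was at 17323, 17239.9, 20406 and 16057 in wild-type and 10198, 14825, 7462 and 12426 in mutant total RNA, without overlap, and fell by 0.70 ± 0.18 on the log2 scale (adjusted p = 0.0145). Its polyribosomal values were 22911, 17842, 21041 and 16272 in wild-type and 11397, 14943, 9606 and 16489 in mutant cultures, where mutant culture 4 lay above wild-type culture 4 (log2 change -0.59 ± 0.18, adjusted p = 0.0311). Pseudogenes share 33.2% of the 75-base words of Ccnb1. Ccnb2, the other B cyclin, did not overlap between genotypes in either fraction. Its values were 6772, 5953, 6491 and 5452 in wild-type and 3370.3, 5195, 3183 and 4193 in mutant total RNA (adjusted p = 0.00841), and 12992, 8427, 9309 and 7926 in wild-type and 5127, 7295, 5319 and 7558 in mutant cultures, on polyribosomes (adjusted p = 0.0320).

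Cdk1 itself (chromosome 10, 69335146 to 69352938, minus strand, GRCm38), the kinase of the engine, fell in total RNA, from 15873, 17543, 18904 and 15271 in wild-type to 9946, 14216, 7801 and 12441 in mutant cultures (log2 change -0.64 ± 0.17, adjusted p = 0.0147). On polyribosomes it was at 45832, 41031, 42169 and 36267 in wild-type and 33422, 36767, 30354 and 37998 in mutant cultures, and the groups overlapped (adjusted p = 0.128). Ccna2, the A-type cyclin, fell in total RNA by 0.68 ± 0.20 (adjusted p = 0.0213) and missed the threshold on polyribosomes at a change of -0.57 ± 0.19 (adjusted p = 0.0521). The phosphatases that remove the inhibitory phosphates of Cdk1 were split, with Cdc25c lower in total RNA by 0.56 ± 0.19 (adjusted p = 0.0387) and Cdc25b at 3214 ± 197 in wild-type and 2983 ± 407 in mutant total RNA (log2 change -0.12 ± 0.11, adjusted p = 0.404). The call for Cdc25c was lost in 10 of 18 alternatives.

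Among checkpoint and APC/C genes, those of the anaphase switch fell in both fractions. Mad2l1 (chromosome 6, 66535390 to 66547220, plus strand, GRCm38) encodes Mad2, which binds Cdc20 at unattached kinetochores. It was at 6003, 6766, 7470.2 and 5801 in wild-type and 3389, 4962, 2613 and 4228 in mutant total RNA and fell by 0.81 ± 0.18 on the log2 scale (adjusted p = 0.00752). On polyribosomes it fell by 0.63 ± 0.20 (adjusted p = 0.0420), from 7955, 6027, 5978 and 5870.0 in wild-type to 3182, 4986, 3183 and 5871 in mutant cultures. There wild-type culture 1 was far above its group, and mutant culture 4 reached the wild-type values.

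Cdc20 (chromosome 4, 118432901 to 118437352, minus strand, GRCm38), the activator of APC/C that the checkpoint restrains, was at 24005, 20787, 25272 and 19445 in wild-type and 13724, 19424, 9520.2 and 17251 in mutant total RNA (log2 change -0.62 ± 0.20, adjusted p = 0.0302). The polyribosomal values were 66481, 58342, 70029 and 50448 in wild-type and 50677, 49583, 37045 and 42835 in mutant cultures, and mutant culture 1 lay just above wild-type culture 4 (log2 change -0.45 ± 0.14, adjusted p = 0.0370). Ube2c (chromosome 2, 164769898 to 164778822, plus strand, GRCm38), the ubiquitin-conjugating enzyme of APC/C, did not overlap between genotypes in either fraction. It held 11244, 12861, 15453 and 11013 in wild-type and 7449.9, 10303, 5303 and 8308 in mutant total RNA, and 22722, 21494, 24144 and 21018 in wild-type and 17140.0, 18354, 15060.3 and 15851 in mutant cultures, on polyribosomes, and it fell by 0.72 ± 0.19 and 0.43 ± 0.11 (adjusted p = 0.0143 and 0.0180). An exon of Tnnc2 on the other strand overlaps Ube2c, and the libraries do not mark strand.

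The checkpoint kinase genes were less even. Bub1, a kinase at unattached kinetochores, fell in total RNA from 2766, 3293, 4046 and 2887 in wild-type to 1775, 2871, 1283 and 2196 in mutant cultures (adjusted p = 0.0264) and was at 1389 ± 334 and 1269 ± 443 on polyribosomes (adjusted p = 0.649). Ttk, the kinase that starts checkpoint signalling, missed the threshold in total RNA (-0.53 ± 0.20, adjusted p = 0.0540). Bub1b, the BubR1 gene, also missed it in total RNA (-0.39 ± 0.16, adjusted p = 0.0717) and on polyribosomes (adjusted p = 0.0536), where all 4 mutant cultures, at 7203, 9789.9, 7197 and 9947, were nevertheless below the wild-type values of 13287, 10126, 11894 and 10432. Genes with no overlap of this kind on polyribosomes numbered 4 of 40 (10.0%, against 14.6% of all tested genes).

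At the centromere, Cenpa and Nuf2 fell in total RNA, and no gene of the group passed on polyribosomes. Cenpa (chromosome 5, 30666777 to 30674830, plus strand, GRCm38) encodes the histone H3 variant that marks the centromere and had the largest change of the 40 in total RNA. Its values were 11315, 12007, 13581 and 9999.8 in wild-type and 5828, 8329, 4909 and 7472 in mutant cultures, a fall of 0.84 ± 0.16 on the log2 scale without overlap (adjusted p = 0.00483). On polyribosomes the values were 7121, 8119, 9083 and 7648 in wild-type and 8059.7, 7607, 6481 and 6658 in mutant cultures (log2 change -0.15 ± 0.13, adjusted p = 0.398). Nuf2 and Ndc80 encode partners in the complex that grips microtubules. Nuf2 fell in total RNA from 5101, 5952, 6595 and 5058 in wild-type to 2849, 4857, 2863 and 4453 in mutant cultures (adjusted p = 0.0218) and was at 2233 ± 452 and 1956 ± 777 on polyribosomes (adjusted p = 0.489).

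Ndc80 (chromosome 17, 71496100 to 71526857, minus strand, GRCm38) did not pass in either fraction, but its changes pointed opposite ways. Its total RNA values were 1720.1, 2315, 2275 and 1664 in wild-type and 1386, 1956, 1251 and 1747 in mutant cultures (-0.34 ± 0.17, adjusted p = 0.125), and its polyribosomal values 1206, 853, 1039 and 835 in wild-type and 969, 1498, 894 and 1492 in mutant cultures (0.28 ± 0.20, adjusted p = 0.331). The kinetochore motor gene Cenpe had the same signs (-0.23 ± 0.21 and 0.35 ± 0.23), as did Cenpf, a large coiled-coil protein of the outer kinetochore (-0.33 ± 0.18 and 0.22 ± 0.20), and neither passed in total or polyribosomal RNA. Cenpf held 3276, 5435, 5397 and 4019 in wild-type and 3482, 4222, 2765 and 3838 in mutant total RNA, so 3 of 4 mutant cultures lay inside the wild-type range.

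Of the Aurora and Polo kinases, Aurka changed in both fractions. Aurka (chromosome 2, 172356190 to 172370535, minus strand, GRCm38), the kinase of centrosomes and spindle poles, held 7321, 6536, 7852 and 6009 normalized reads in wild-type and 3959, 6077, 2801 and 4889 in mutant total RNA, where mutant culture 2 lay just inside the wild-type range (log2 change -0.69 ± 0.20, adjusted p = 0.0226). On polyribosomes it was at 17242, 15702, 17305 and 13614 in wild-type and 11186, 13405, 9205 and 11664 in mutant cultures with no overlap (-0.50 ± 0.14, adjusted p = 0.0242). Plk1 (chromosome 7, 122159439 to 122169873, plus strand, GRCm38), which acts from mitotic entry to cytokinesis, fell on polyribosomes from 44966, 36216, 41775 and 32647 in wild-type to 28660.4, 32776, 20816 and 24381 in mutant cultures, by 0.55 ± 0.15 (adjusted p = 0.0245), and mutant culture 2 alone overlapped. Its total RNA change was of a like size, -0.50 ± 0.21, and did not pass (adjusted p = 0.0873).

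Aurkb, the kinase of the chromosomal passenger complex, was at 8255, 7392, 8731 and 6929 in wild-type and 5424, 7854, 3937 and 6543 in mutant total RNA and did not pass there (-0.44 ± 0.18, adjusted p = 0.0810) or on polyribosomes (-0.37 ± 0.13, adjusted p = 0.0560). Birc5 (chromosome 11, 117849251 to 117855743, plus strand, GRCm38) encodes survivin, its partner in that complex, and fell in total RNA without overlap, from 8202, 8116, 9043 and 7217 in wild-type to 4550.0, 6493, 3689 and 6067 in mutant cultures (-0.68 ± 0.17, adjusted p = 0.0110). On polyribosomes Birc5 stood at 7609.5, 8057, 8563 and 8531 in wild-type and 7552, 8346, 6303 and 7733 in mutant cultures (adjusted p = 0.431).

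**Figure D3:**
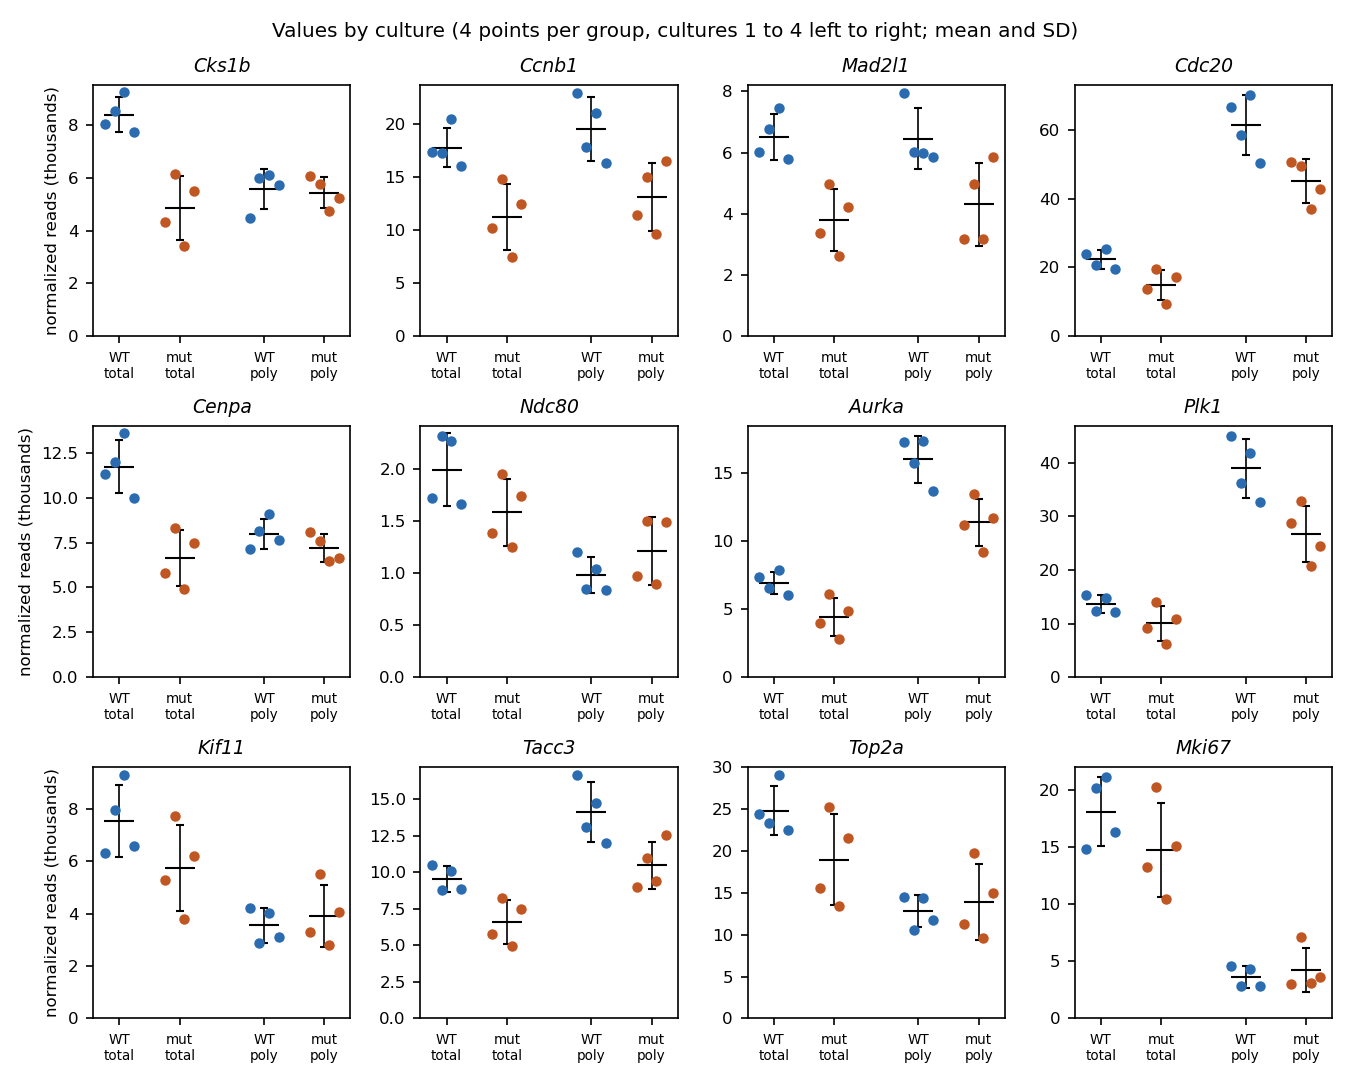
Normalized reads (axis in units of k reads) for 12 of the genes, with 1 point per culture, blue for wild type and orange for mutant, total RNA on the left and polyribosomal RNA on the right of each panel, and the mean and SD of 4 cultures in black. Cks1b and Cenpa separate by genotype in total RNA and overlap on polyribosomes, Aurka separates on polyribosomes, and Top2a and Mki67 overlap in both.

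Of 8 spindle genes 1 fell in total RNA (12.5%, against 20.7% of all tested genes). Tacc3 (chromosome 5, 33658128 to 33678995, plus strand, GRCm38), which stabilizes kinetochore fibres with Aurora A, was the only gene of its role group to fall in total RNA, from 10499, 8748, 10109.8 and 8814 in wild-type to 5748, 8236, 4938 and 7468 in mutant cultures (-0.56 ± 0.15, adjusted p = 0.0175), and it fell on polyribosomes by 0.43 ± 0.14 (adjusted p = 0.0470). The microtubule depolymerase gene Kif2c and Tpx2, which activates Aurora A on the spindle, were just outside the threshold in total RNA, with changes of -0.49 ± 0.18 and -0.45 ± 0.16 (adjusted p = 0.0502 and 0.0502). Kif2c was at 6224, 5042, 6096 and 4932 in wild-type and 3637, 5281, 2792 and 4511 in mutant cultures, and Tpx2 at 17376, 14319, 16963 and 14270.3 in wild-type and 10193, 15082, 8577 and 13092 in mutant cultures. In both, mutant culture 2 was the one that lay among the wild-type values. Dlgap5, a gene of kinetochore fibre assembly, was at 4404, 3762, 4465 and 3646 in wild-type and 2694, 4142, 2191 and 3360.3 in mutant cultures (-0.43 ± 0.18, adjusted p = 0.0737). Kif11 (chromosome 19, 37376403 to 37421859, plus strand, GRCm38), the motor that pushes spindle poles apart, was at 6326, 7953, 9300.3 and 6594 in wild-type and 5278, 7723, 3796 and 6196 in mutant total RNA and at 4213, 2874, 4041 and 3113 in wild-type and 3302, 5514, 2801 and 4051 in mutant cultures, on polyribosomes, with overlap in both. The microtubule-bound proteins Hmmr, Nusap1 and Gtse1 had total RNA changes of -0.50, -0.22 and -0.22 that did not pass.

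At the midzone, 2 of 6 genes fell in total RNA and 0 on polyribosomes, where 20.7% and 11.9% of all tested genes fell. Kif23, a motor of the centralspindlin complex, went from 4491, 4265, 4977 and 4259 in wild-type to 2632, 4324, 2285 and 3187 in mutant cultures in total RNA (-0.57 ± 0.17, adjusted p = 0.0237), with mutant culture 2 inside the wild-type range. Ect2, the exchange factor that turns on RhoA for the cleavage furrow, was at 4430.2, 4484, 5628 and 4289.9 in wild-type and 3073, 4462, 2379 and 3726 in mutant cultures (-0.49 ± 0.18, adjusted p = 0.0460), and its call was lost in 13 of 18 alternatives. Prc1, which bundles midzone microtubules, was at 11939, 10490.3, 13148 and 10404 in wild-type and 7376, 10936, 6369.5 and 10112 in mutant cultures (-0.43 ± 0.17, adjusted p = 0.0627). The motor gene Kif20a was at 9964, 9284, 11089 and 8641 in wild-type and 6757, 10116, 5109 and 8296 in mutant cultures (-0.40 ± 0.18, adjusted p = 0.101), and in both mutant culture 2 reached the wild-type range. Exons of Rccd1 and Cdc23 on the other strand overlap Prc1 and Kif20a, respectively. Kif20b and Anln, the anillin gene of the cytokinetic ring, were at -0.33 ± 0.22 and -0.32 ± 0.15 and did not pass.

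Of the chromosome proteins, Hmgb2 changed most. Hmgb2 (chromosome 8, 57511907 to 57515999, plus strand, GRCm38), a DNA-bending protein, had the highest wild-type total RNA level of the 40 per kilobase of annotated transcript, at 16327 normalized reads per kilobase, ahead of Ube2c at 13074 and Cdc20 at 12480. Kif20b was lowest at 243.8. Hmgb2 fell from 40163, 45023, 47743 and 38699.6 in wild-type to 23017, 33331, 19766 and 30839 in mutant cultures in total RNA (-0.71 ± 0.16, adjusted p = 0.00811), without overlap. Pseudogenes share 20.1% of its 75-base words. On polyribosomes Hmgb2 passed by the smallest margin (-0.48 ± 0.16, adjusted p = 0.04998), a call lost in 13 of 18 alternatives. Top2a (chromosome 11, 98992943 to 99024189, minus strand, GRCm38), which untangles sister chromatids, was at 24394, 23383, 29126 and 22491 in wild-type and 15557, 25319, 13453 and 21559.7 in mutant cultures in total RNA (adjusted p = 0.0871) and at 14484, 10617, 14349.7 and 11751 in wild-type and 11265, 19755, 9596 and 14978 in mutant cultures, on polyribosomes (adjusted p = 0.813). Mki67, the Ki-67 gene used to mark cycling cells, was at 14823, 20181, 21093 and 16291 in wild-type and 13248, 20288, 10490.2 and 15054 in mutant cultures in total RNA (-0.32 ± 0.19, adjusted p = 0.197), and mutant culture 2 lay above 3 of the wild-type cultures.

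Translational efficiency, the polyribosomal to total ratio of a culture, was next compared between genotypes. Of 40 genes 8 rose and 0 fell (20.0% higher, against 5.07% of all 14333 tested genes higher and 7.89% lower), and at an unadjusted p under 0.05 still 0 were lower. The median change was 0.29 in a range from -0.16 (Gtse1) to 0.79 (Cks1b), beside 0.01 over all tested genes. Those that rose were Cks1b, Cks2, Cenpa and Birc5, which had fallen in total RNA, and Ndc80, Kif11, Hmmr and Top2a, which had not passed there. None of the 8 passed in polyribosomal RNA, where Cks1b, Cks2, Cenpa and Birc5 changed by -0.15 to -0.03 and the other four by 0.08 to 0.28. For 5 of the 40 the ratio was higher in all 4 mutant than in all 4 wild-type cultures (12.5%, against 8.7% of all tested genes) and for 0 it was lower in that way (against 10.4%). Without culture as a block, without variance trend and robust moderation, or with the Y-linked covariate, 0 of the 40 passed (5, 14 and 8 at an unadjusted p under 0.05), and 0 of all genes did. The count was 20 without wild-type culture 1, 4 without wild-type culture 2, wild-type culture 3 or mutant culture 1, and 5 without mutant culture 4. Beside these, 10.4% of all tested genes were higher without wild-type culture 1, 2.3% without wild-type culture 2 and 2.27% without wild-type culture 3. The share was 1.32% without mutant culture 1 and 4.97% without mutant culture 4.

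The ratios below are polyribosomal over total normalized reads, and since the tables were scaled apart they are compared between cultures and not read as a share of mRNA. For Cks1b the ratio was 0.555, 0.701, 0.660 and 0.743 in wild-type and 1.40, 0.939, 1.38 and 0.948 in mutant cultures, a rise of 0.79 ± 0.15 on the log2 scale (limma adjusted p = 0.00726). Cks2 went from 0.622, 0.632, 0.684 and 0.822 in wild-type to 1.35, 0.919, 1.43 and 0.967 in mutant cultures (0.74 ± 0.15, adjusted p = 0.00924) and Cenpa from 0.629, 0.676, 0.669 and 0.765 in wild-type to 1.38, 0.913, 1.32 and 0.891 in mutant cultures (0.69 ± 0.15, adjusted p = 0.0103). In these genes mutant cultures 1 and 3 stood highest, the same cultures that were lowest in total RNA. Total RNA is the denominator of the ratio, so this match is partly built in and is only a description. Birc5 rose from 0.928, 0.993, 0.947 and 1.18 in wild-type to 1.66, 1.29, 1.71 and 1.27 in mutant cultures (0.54 ± 0.13, adjusted p = 0.0162).

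The others that rose started from low ratios. Top2a went from 0.594, 0.454, 0.493 and 0.523 in wild-type to 0.724, 0.780, 0.713 and 0.695 in mutant cultures (0.50 ± 0.12, adjusted p = 0.0130), with no overlap. Ndc80 was at 0.701, 0.368, 0.457 and 0.502 in wild-type and 0.699, 0.766, 0.715 and 0.854 in mutant cultures (0.62 ± 0.17, adjusted p = 0.0247), and wild-type culture 1 lay among the mutant values. The same culture stood out for Kif11, at 0.666, 0.361, 0.435 and 0.472 in wild-type against 0.626, 0.714, 0.738 and 0.654 in mutant cultures (0.53 ± 0.16, adjusted p = 0.0345), and for Hmmr, at 0.448, 0.196, 0.241 and 0.269 in wild-type against 0.379, 0.447, 0.409 and 0.488 in mutant cultures (0.64 ± 0.20, adjusted p = 0.0430). These calls were the less stable, lost in 12 of 18 alternatives for Kif11, 14 for Hmmr and 8 for Ndc80, against 3 for Cks1b, Cks2 and Cenpa, 4 for Top2a and 5 for Birc5.

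In wild-type cultures the 40 genes spanned a wide range of ratios. Relative to the median tested gene, the log2 ratio ran from -2.15 for Mki67, at the 1.28 percentile of all tested genes, to 1.70 for Plk1, at the 97.6 percentile. Anln (-1.96), Hmmr (-1.68), Kif20b (-1.55) and Cenpe (-1.31) were also low, and Cdc20 (1.64), Aurkb (1.53), Cdk1 (1.48) and Cdc25b (1.48) high. Of 22 genes below 0 in wild type, 7 rose in efficiency and the median change was 0.50, and of 18 at or above 0, 1 rose and the median was 0.12. The wild-type ratio enters both numbers, so this is a description. The SD over the 40 genes was 1.05 in wild-type and 0.91 in mutant cultures.

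**Figure D4:**
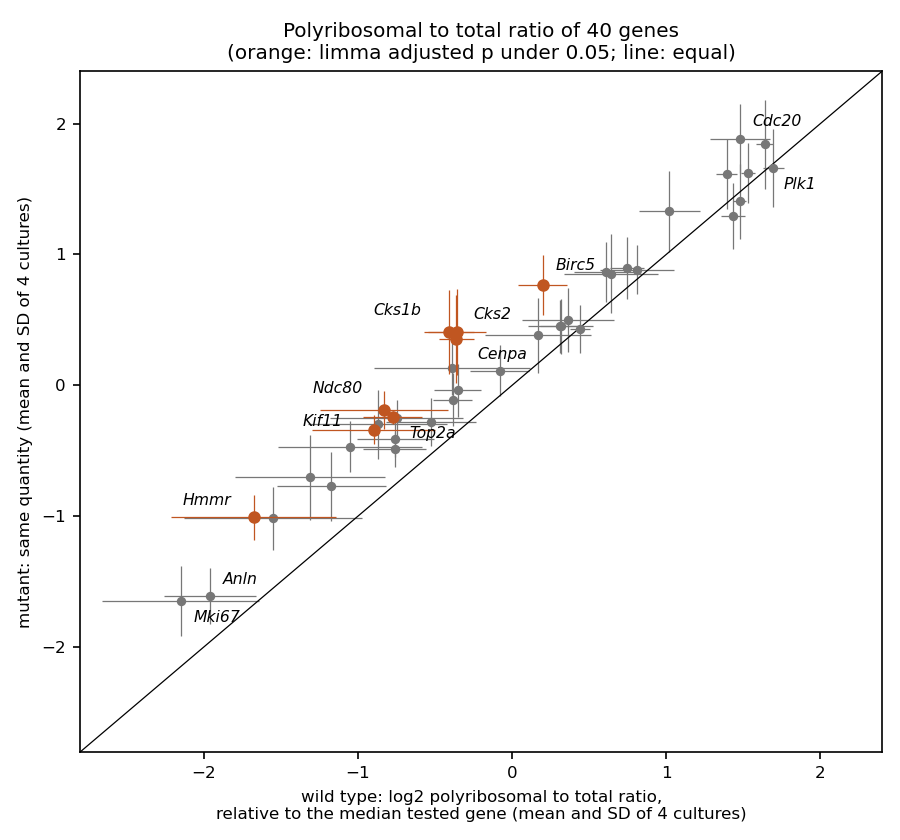
Log2 polyribosomal to total ratio relative to the median tested gene, wild type on the horizontal and mutant on the vertical axis, mean and SD of 4 cultures for each of 40 genes, with genes that passed for efficiency in orange and a line of equality. Most genes lie above the line, Mki67 at the lower left with -2.15 in wild type among them, while Plk1 at 1.70 lies near it at the upper right.

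The efficiency changes were also set beside transcript length. The 5 genes with annotated transcripts under 1500 bases, Cks1b, Cks2, Ube2c, Cenpa and Birc5, had a median efficiency change of 0.69 and 4 of 5 rose, where the median was 0.31 and 22.3% rose over all 1965 tested genes of that length. Of 24 genes of 1500 to 4000 bases 2 rose (median 0.18, against 0.01 and 2.36% of all). For the 11 genes over 4000 bases the median was 0.47 and 2 rose, where all tested genes of that length had a median of -0.18, with 1.32% higher and 18.3% lower. For these long genes the median change was -0.42 in total and 0.08 in polyribosomal RNA, and for the short ones -0.81 and -0.14.

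The mutant cultures were not alike. Over the 40 genes, the mean log2 level in total RNA relative to all 8 cultures was 0.20, 0.27, 0.47 and 0.10 in wild-type and -0.38, 0.15, -0.73 and -0.09 in mutant cultures 1 to 4. Mutant culture 3 was the lowest of the 8 cultures for 39 genes, and mutant culture 2 was the highest of the mutant cultures for 40 and within the wild-type range for 25. On polyribosomes the means were 0.31, -0.04, 0.23 and -0.10 in wild-type and -0.25, 0.22, -0.45 and 0.07 in mutant cultures, and mutant culture 2 exceeded every wild-type culture for 13 genes. The log2 SD was larger among mutant than wild-type cultures for 38 of 40 genes in total RNA and 34 of 40 on polyribosomes, where 57.0% and 68.7% of all tested genes showed that. For the ratio, wild-type culture 1 was the highest of its group for 35 genes, with a mean of 0.14 against -0.35, -0.28 and -0.20 in the other wild-type cultures and 0.05 to 0.30 in mutant cultures. Counts of genes for which a culture was highest, lowest, or within or above the wild-type range were made for the 40 genes alone. Without the share of all tested genes, they do not set these genes apart from a shift of a whole library.

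**Figure D5:**
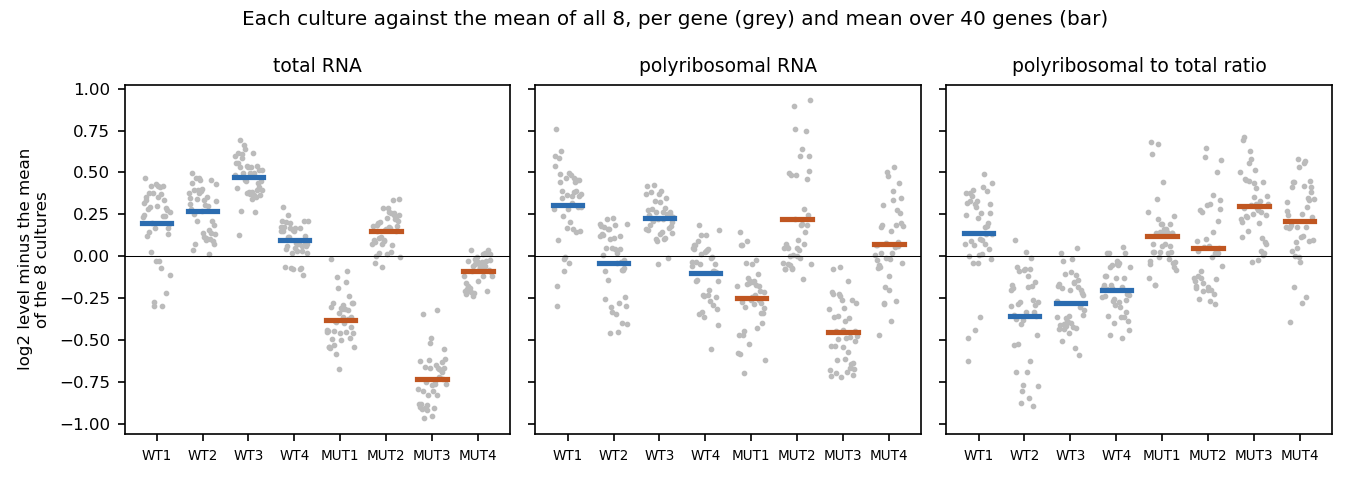
Log2 level of each of 40 genes (grey points) in each culture relative to the mean of the 8 cultures, with the mean over the genes as a bar (blue wild type, orange mutant), for total RNA, polyribosomal RNA and their ratio. Mutant culture 3 is lowest in total RNA at -0.73, mutant culture 2 lies at 0.15 within the wild-type range, and wild-type culture 1 stands above the other wild-type cultures in the ratio.

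Other measures moved with these cultures. Mutant cultures 2 and 4, the highest of the mutants for the mitotic genes, held 23631 and 12735 normalized reads of the 13 microglia and macrophage markers in total RNA, where mutant cultures 1 and 3 held 5514 and 3974 and wild-type cultures 3117 to 5119. Other marker sums were highest in mutant culture 3, the lowest for the mitotic genes. In mutant cultures 1 to 4 the oligodendrocyte markers summed to 21148, 18813, 25680.3 and 19296, the neuron markers to 2068, 1010.2, 2104 and 1872, and the choroid plexus markers to 1453, 1687, 3762 and 1654. The part of these cells in the levels was not tested. Among cultures with high Y-linked transcripts, mutant culture 1 against wild-type cultures 1, 2 and 3, all 40 genes were lower in the mutant in total RNA (median -0.67), 38 were lower on polyribosomes (median -0.44) and 34 had a higher ratio (median 0.25), beside 49.0%, 49.6% and 47.8% of all tested genes. Among those with low Y-linked transcripts, mutant cultures 2, 3 and 4 against wild-type culture 4, the numbers were 40 (-0.32), 22 (-0.03) and 37 (0.38), beside 50.2%, 50.8% and 50.7% of all tested genes, so that the polyribosomal count was near that of all genes. A single culture on a side gives no test.

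The 7 further lists of pathway genes, chosen with earlier results of these data known, were then compared, and their shares stand beside those of all tested genes (20.7% lower and 19.7% higher in total RNA, 11.9% and 11.7% on polyribosomes, 7.89% and 5.07% in efficiency). Of 31 further kinetochore genes 20 fell and 0 rose in total RNA (64.5% lower, median -0.50), 3 fell on polyribosomes (9.68%, under the share of all genes) and 4 rose in efficiency (12.9%). Spc24, of the Ndc80 complex, fell from 3942 ± 295 to 2341 ± 617 in total RNA (adjusted p = 0.00681) and by 0.43 on the log2 scale on polyribosomes (adjusted p = 0.0355). Cenpw and Pmf1, which link centromere chromatin to the outer kinetochore, fell by 0.79 and 0.70 in total RNA (adjusted p = 0.00762 and 0.00892), and Pmf1 rose in efficiency by 0.45 (adjusted p = 0.0406). Of 17 APC/C subunits and partners 9 fell in total RNA (52.9%), 2 on polyribosomes (11.8%, near the share of all genes), and 5 rose in efficiency (29.4%). The small APC/C subunit gene Cdc26 fell by 0.59 in total RNA (adjusted p = 0.00283) and rose in efficiency by 0.63 (adjusted p = 0.0113). Ube2s, which lengthens the ubiquitin chains begun by Ube2c, had 37345 ± 2892 against 22693 ± 4672 normalized reads of total RNA (adjusted p = 0.00471) and rose in efficiency by 0.58 (adjusted p = 0.0163). Cdc16, another APC/C subunit, fell by 0.43 in total RNA (adjusted p = 0.00395).

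Of 21 condensin, cohesin and separase genes 7 fell in total RNA (33.3%). On polyribosomes 2 fell (9.52%), and in efficiency 1 rose and 1 fell (4.76% each), shares under those of all tested genes. The condensin II gene Ncaph2 fell by 0.42 (adjusted p = 0.00711), and the cohesin genes Stag1 and Pds5a by 0.42 and 0.42 (adjusted p = 0.0246 and 0.0289). Of 32 further spindle and cytokinesis genes 11 fell and 1 rose in total RNA (34.4% lower), 8 fell on polyribosomes (25.0%), and 6 rose and 2 fell in efficiency (18.8% and 6.25%). Pbk, a mitotic kinase, fell by 0.69 in total RNA (adjusted p = 0.00906). Cdca8, the borealin gene of the passenger complex, fell in total RNA by 0.68 and on polyribosomes by 0.54 (adjusted p = 0.0171 and 0.0159), and Cdca3 fell in total RNA by 0.64 (adjusted p = 0.0172). Numa1, which tethers microtubules at the spindle poles, went the other way, from 7479.7 ± 1487 to 10288 ± 1355 in total RNA (adjusted p = 0.0238), and fell in efficiency (-0.46, adjusted p = 0.0482).

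Among 18 regulators that act on G2/M promoters, 9 fell and 2 rose in total RNA (50.0% and 11.1%), and 8 fell and 1 rose on polyribosomes (44.4% and 5.56%). Rbbp4, a MuvB subunit, fell by 0.40 and 0.35 in the total and polyribosomal fractions (adjusted p = 0.00617 and 0.0445). E2f4 and its partner Tfdp1 fell in both as well, by 0.46 and 0.46 and by 0.59 and 0.47 (adjusted p = 0.0124, 0.0205, 0.0128 and 0.0272). The pocket protein genes Rbl2 and Rb1, repressors of E2F targets, rose in total RNA by 0.39 and 0.34 (adjusted p = 0.0139 and 0.0239). Foxm1 and Mybl2, the activators of G2/M genes, were named after their values were seen. Foxm1 fell on polyribosomes by 0.62 ± 0.16 (adjusted p = 0.0193) and did not pass in total RNA (-0.38 ± 0.16, adjusted p = 0.0774), and Mybl2 fell in both, by 0.73 and 0.86 (adjusted p = 0.0253 and 0.00943).

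Of 17 brakes on mitotic entry, 4 fell and 3 rose in total RNA (23.5% and 17.6%), close to the shares of all tested genes, and 3 fell and 2 rose on polyribosomes (17.6% and 11.8%). Chek1, the DNA damage checkpoint kinase, fell from 1385 ± 256 to 707 ± 238 in total RNA (adjusted p = 0.00799), and Trp53, the p53 gene, fell by 0.42 (adjusted p = 0.00950). The cell cycle inhibitor genes Ccng2 and Cdkn1c rose in total RNA from 1054 ± 118 to 1849 ± 589 and from 119 ± 3.58 to 189.6 ± 61.1 (adjusted p = 0.0134 and 0.0437) and on polyribosomes by 0.88 and 0.65 (adjusted p = 0.0152 and 0.0303). Gadd45b, a stress-induced inhibitor of Cdk1, rose in total RNA (adjusted p = 0.0390) with mutant cultures at 4165, 731, 9293 and 1501 against 683, 726, 473 and 589 in wild type, so mutant culture 2 lay close to the wild-type values and mutant cultures 1 and 3 furthest above them. For the phase before, 32 of 32 S phase genes fell in total RNA (median -0.73) and 21 on polyribosomes (65.6%, median -0.59), while 2 rose in efficiency (6.25%), and Ung fell the most of the genes named by the rule, by 1.24 and 1.17. Of the replication clamp loader genes, Rfc5 fell by 0.95 and Rfc2 by 0.71 in total RNA (adjusted p = 0.00450 and 0.00545).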

How the data were processed

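Total and polyribosomal RNA of 8 V-SVZ NSC cultures (4 per genotype) were sequenced as unstranded, poly(A)-selected paired-end libraries. STAR alignment to mm10 and DESeq2 normalization of gene counts by the authors are given in the methods and in the submitters' processing notes. What was deposited is this normalized signal, in a table for each fraction; no raw counts were used. Each table held 24972 rows, and 26 rows whose names had turned into dates were dropped.

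Values were tested as log2(value + 1) with limma 3.58.1 (R 4.3.3), variance trend and robust moderation, over genes with a mean of at least 10 (14967 in total RNA, 14412 in polyribosomal RNA and 14333 for efficiency), with Benjamini-Hochberg adjustment over all of them at 0.05. A fold change on this scale understates the change of low genes. Efficiency was the interaction of genotype and fraction over 16 libraries, with culture as a block, since both libraries of a culture share a label and deviate together (correlations 0.23 to 0.73). A count model had been planned only for raw counts. The scripts were tested on simulated data.

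Named with culture values were the 4 genes of each role group with the smallest p in total RNA and the 3 with the smallest p for efficiency; of each further list, the 3 genes with the smallest p in total RNA and those that moved against their list. Cdk1, Kif11, Bub1b and Hmmr fall outside this rule, and their culture values were added after they were seen. Other genes are named as members of the 40. The genes, lists and alternatives were chosen with earlier results of these data known. Alternatives were other pseudocounts, filters, scalings and moderation, leaving out cultures, a Y-linked covariate and a replicate block.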

Additional observations from a re-analysis of the deposited data

Results flagged for a closer look

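A culture stood far from the other three of its group, by Dixon's criterion, in 4 of the 160 groups of 4 values looked at, and chance alone gives about 1 in 20. In wild-type total RNA, Ect2 was at 5628 normalized reads in culture 3, against 4289.9 to 4484 in the others. In wild-type polyribosomal RNA, Mad2l1 was at 7955 in culture 1, against 5869.98 to 6027. Mutant culture 2 was far above its group on polyribosomes for Cenpe, at 1756 against 862 to 934, and for Mki67, at 7124 against 3029 to 3636.

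The genotype change differed between the total and polyribosomal fractions, by the interaction in limma, for 8 genes. The log2 differences, polyribosomal minus total, were 0.79 for Cks1b, 0.74 for Cks2, 0.69 for Cenpa, 0.64 for Hmmr, 0.62 for Ndc80, 0.54 for Birc5, 0.53 for Kif11 and 0.50 for Top2a.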

How the results depend on the processing

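Every fit was repeated under 18 alternatives, and no change that had passed reversed. The counts of genes higher in total or polyribosomal RNA and lower in efficiency stayed at 0 in all of them. The count lower in total RNA, 19, was 35 without mutant cultures 2 and 4, 0 with the Y-linked covariate, and 10 (without mutant culture 1) to 34 (without mutant culture 2) when a culture was left out, with 11 without wild-type culture 3. The count lower on polyribosomes, 9, was 5 with no filter, 0 by library size alone, by quantiles or with the Y-linked covariate, 2 without trend and robust moderation and 22 without mutant cultures 2 and 4. Leaving out a culture gave 0 (without wild-type culture 3) to 12 (without mutant culture 2). The count higher in efficiency, 8, was 0 without trend and robust moderation and 0 with the Y-linked covariate, and leaving out a culture gave 4 (without wild-type culture 2, among others) to 20 (without wild-type culture 1). Shares of all tested genes moved as well. Lower in total RNA were 14.1% without mutant culture 1 and 22.8% without mutant culture 2. On polyribosomes 6.18% were lower without wild-type culture 3 and 14.6% without mutant culture 2. Higher in efficiency were 2.3% without wild-type culture 2 and 10.4% without wild-type culture 1. The share of promoters with a CHR was 38.2% in the shorter window. Scaling by library size alone moved the median of all genes to 0.11 in total and 0.13 in polyribosomal RNA, where the 40 genes had medians of -0.40 and -0.10. The cause of these shifts was not tested.

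Replicate numbers shared between genotypes did not pair the cultures (correlations of deviations from -0.13 to 0.10). With the replicate block, 16 genes were lower in total RNA and 2 on polyribosomes, and without the block on culture 0 were higher in efficiency.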
